A study of Mus musculus with 6 samples.

Results

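The mRNAs of 10 genes of the Hippo pathway were followed in a mouse mammary epithelial line after knockdown of Id4. They were the coactivator genes Yap1 and Wwtr1 (which encodes TAZ), the transcription factor genes Tead1, Tead2, Tead3 and Tead4, the kinase genes Lats1 and Lats2, and the angiomotin genes Amotl1 and Amotl2. They were chosen by gene symbol, and all 10 were found among the 25655 genes of the deposited table. Both the 10 and the gene lists below were chosen with earlier results of these data known. Shares called in them are therefore descriptive. The siID4 arm held 3 libraries of Comma-Dβ cells transfected with a siGENOME SMARTpool of siRNAs against mouse Id4, and the NT arm 3 libraries of the same cells given an ON-TARGETplus non-targeting pool. In both arms the cells were at passage 29, received 20 nM of siRNA and were harvested 48 hr after transfection. The arms thus also differed in the siRNA product line, which cannot be told apart from the knockdown. The design states 3 biological replicates. All libraries came from a single cell line, so p-values measure the spread between these samples, which may in part be technical.

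The Hippo pathway is a kinase cascade that restrains tissue growth. The kinases MST1 and MST2, encoded by Stk4 and Stk3, activate LATS1 and LATS2, which phosphorylate YAP and TAZ, so that these are held in the cytoplasm by 14-3-3 proteins or degraded. YAP and TAZ that escape enter the nucleus, bind TEAD proteins, which supply the contact with DNA, and switch on genes such as Ctgf and Cyr61. LATS2 and AMOTL2 are themselves known YAP and TAZ targets and act back on the pathway, LATS2 as kinase and angiomotins by binding YAP and TAZ. Much of this control acts on the proteins, which were not measured here. In the mammary gland YAP and TAZ are known for their part in the basal state and in responses to stiff matrix.

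The sequence that TEAD proteins recognise has the core GGAATG, and its occurrences in the promoters are shown because part of the pathway is under its own control. RefSeq promoter windows on build GRCm38.p6, 250 bases before to 50 bases after a transcription start, were at hand for 8 of the 10 genes (12 windows). Those of Tead1 and Tead4 were not used here. GGAATG was searched on both strands, where the other strand reads CATTCC. It was present in 7 of the 12 windows and 5 of the 8 genes, Yap1, Wwtr1, Tead3, Lats2 and Amotl2. The Wwtr1 windows overlap and share the same site, which is counted for each window. GGAATG was absent from the windows of Tead2, Lats1 and Amotl1. Among all windows of this length 14.7% held it, and 16.6% of genes with a window held it in at least 1 of their windows. Each site is given with its 12 flanking bases, along the strand of the gene, with the core in capitals.
Yap1, chr9:8004720-8004749, minus strand: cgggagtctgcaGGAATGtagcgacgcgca
Wwtr1, chr3:57576029-57576058, minus strand: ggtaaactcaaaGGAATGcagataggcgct
Amotl2, chr9:102717727-102717756, plus strand: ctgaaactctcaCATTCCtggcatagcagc
Lats2, chr14:57746102-57746131, minus strand: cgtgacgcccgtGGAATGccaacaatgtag
Tead3, chr17:28350970-28350999, minus strand: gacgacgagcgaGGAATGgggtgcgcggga
Tead3, chr17:28350706-28350735, minus strand: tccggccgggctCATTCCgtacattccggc
The second Tead3 window also held the core at 2 further positions, 9 and 125 bases downstream of the CATTCC shown. Counted from the RefSeq start of each window, the Amotl2 site began 65 bases before the start, the Yap1 site 141 bases before it, and the Lats2 site at base 5 of the RefSeq transcript. For Amotl2, Lats2, Amotl1, Tead2, Tead3 and the more downstream Wwtr1 window, that start lies inside the gene span given below from the gene annotation. The E-box CAGCTG, a form bound by the E proteins with which ID proteins pair, was in none of the 12 windows, against 16.3% of all windows. These matches describe letters in a window and show neither binding nor its absence.

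The libraries were deep and the knockdown was partial. The siID4 libraries held between 21.7 and 23.1 M counts and the NT libraries between 19.2 and 23.1 M. Id4 was at 59.4, 62.2 and 48.2 CPM (library-scaled counts, TMM-normalised CPM) in siID4 replicates 1 to 3, against 135, 114 and 118 CPM in the NT replicates, a log2 fold change of −1.11 with an SE of 0.10 (adjusted p = 8.65e-04 in edgeR). Of 12 mammary epithelial markers, Krt5, Krt14, Krt8 and Krt18 among them, all were detected. Their summed level was 2328 to 2689 CPM in siID4 and 2529 to 2869 CPM in NT libraries. Of the 12, 3 were called (25%, beside 9.55% of all genes tested). Trp63 (log2 fold change 0.27) and Cdh1 (0.24) were higher and Epcam (−0.25) was lower, and 8 of the 12 estimates were below 0.

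After Id4 knockdown 4 of the 10 Hippo mRNAs rose and 1 fell. Amotl2, Lats2, Tead3 and Tead1 rose to between 1.13 and 1.38 times the NT level, and Tead4 fell to 0.765 of it. Yap1, Wwtr1, Tead2, Lats1 and Amotl1 did not pass the test, edgeR's quasi-likelihood test with a Benjamini-Hochberg adjusted p under 0.05. All 10 were tested. Among all 13941 genes tested 9.55% were called, 4.62% upward and 4.93% downward. The median log2 fold change was 0.13 for the 10 genes and 0.00 for all genes. All siID4 libraries lay above all NT libraries for 5 of the 10 genes, as for 15.5% of all genes tested, and below them for 1. In either direction the arms of 30.9% of all genes did not overlap. The count was 2, Lats2 and Amotl2, when siID4 replicate 1, siID4 replicate 2 or NT replicate 3 was left out, and 2 up and 1 down (Tead4) without NT replicate 2. Over all genes those 4 fits called 884, 445, 905 and 631 genes, in the same order, against 1331 with all libraries. With the replicate number as a block, 6 rose and 1 fell, where 36.1% of all genes were called, 17.9% upward and 18.3% downward.

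**Figure D1:**
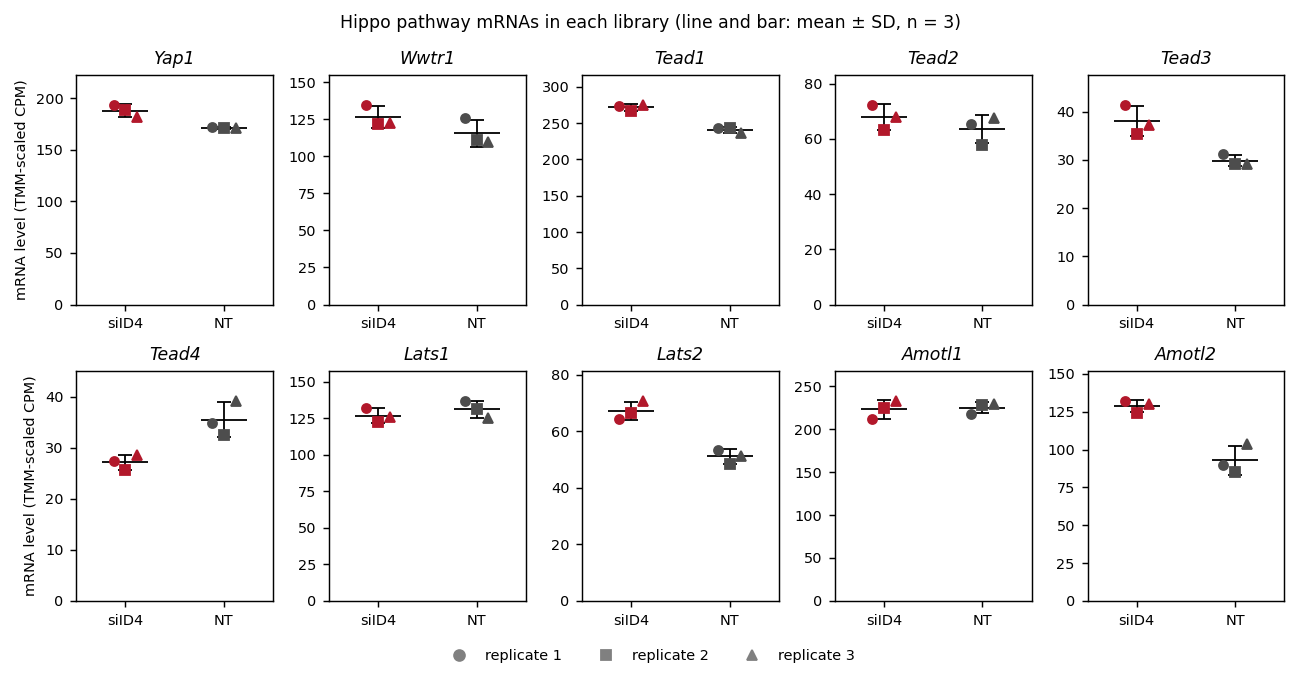
TMM-scaled CPM of each Hippo pathway mRNA in every library, with siID4 in red and NT in grey, marker shapes for replicates 1 to 3, and lines and bars for mean ± SD (n = 3). Every siID4 point lies above every NT point for Yap1, Tead1, Tead3, Lats2 and Amotl2 and below for Tead4, while the arms overlap for Wwtr1, Tead2, Lats1 and Amotl1.

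**Figure D2:**
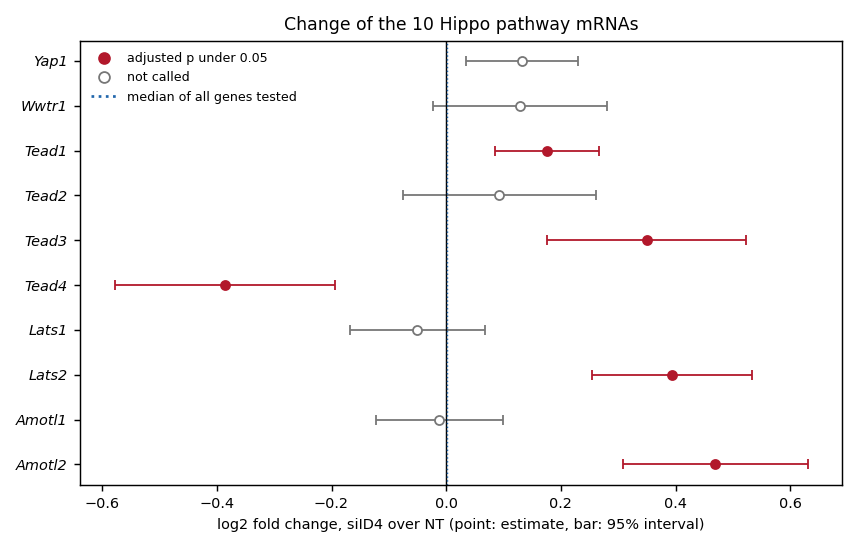
Log2 fold change of siID4 over NT for the 10 Hippo pathway mRNAs, with 95% intervals from the edgeR fit, filled red where the adjusted p was under 0.05. The intervals of Tead1, Tead3, Lats2 and Amotl2 lie above 0 and that of Tead4 below it, and the uncalled Yap1 also has an interval above 0.

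Yap1 and Wwtr1 encode the coactivators that carry the signal into the nucleus. Yap1 (ENSMUSG00000053110) lies on chromosome 9 from 7931999 to 8004596 on the minus strand of GRCm38, and Wwtr1 (ENSMUSG00000027803) on chromosome 3 from 57455649 to 57575910, also on the minus strand. Yap1 was at 194, 188 and 182 CPM in siID4 replicates 1 to 3 and at 172, 171 and 171 CPM in NT. All 3 siID4 libraries were higher, by a small margin. The log2 fold change of 0.13 (SE 0.04, 95% interval 0.04 to 0.23) had an adjusted p of 0.0872 in edgeR. Yap1 passed with the replicate block (adjusted p = 5.79e-04) and with library totals in place of TMM (0.0454). Wwtr1 was at 135, 122 and 122 CPM in siID4 and at 126, 111 and 110 CPM in NT. The arms overlapped because NT replicate 1 was higher than siID4 replicates 2 and 3, while each siID4 library was above the NT library of the same number. Wwtr1 had a log2 fold change of 0.13 (SE 0.07, 95% interval −0.02 to 0.28, edgeR adjusted p = 0.271), and it passed with the block (adjusted p = 0.00144). The intervals leave room for increases of up to 0.23 (Yap1) and 0.28 (Wwtr1) log2 units.

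The TEAD genes, whose products bind DNA for YAP and TAZ, moved in different directions. Tead1 (ENSMUSG00000055320, chromosome 7, 112679318 to 112906807, plus strand) was at 273, 266 and 276 CPM in siID4 and at 243, 243 and 236 CPM in NT. The gap between the arms exceeded the range within each. Tead1 thus rose by 0.18 on the log2 scale (SE 0.04, edgeR adjusted p = 0.0280). Tead3 (ENSMUSG00000002249, chromosome 17, 28331671 to 28350817, minus strand) was at 41.5, 35.5 and 37.2 CPM in siID4 and at 31.2, 29.2 and 29.2 CPM in NT. It rose by 0.35 on the log2 scale (SE 0.08, edgeR adjusted p = 0.0232), with siID4 replicate 1 the highest library. Tead4 (ENSMUSG00000030353, chromosome 6, 128224288 to 128300823, minus strand) was at 27.3, 25.6 and 28.5 CPM in siID4 and at 34.8, 32.4 and 39.2 CPM in NT. Tead4 was the only one of the 10 genes called as lower, with a log2 fold change of −0.39 (SE 0.09, edgeR adjusted p = 0.0234). Tead2 (ENSMUSG00000030796, chromosome 7, 45215753 to 45233644, plus strand) was at 72.5, 63.2 and 68.0 CPM in siID4 and at 65.4, 58.0 and 67.6 CPM in NT. Its arms overlapped, and the log2 fold change of 0.09 did not pass (SE 0.07, 95% interval −0.08 to 0.26, edgeR adjusted p = 0.490).

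The 3 TEAD calls were not kept in every fit without 1 library. In edgeR fits that left out 1 library at a time, Tead1 passed in 1 of 6, Tead3 in 2 and Tead4 in 3, with highest adjusted p-values of 0.0926, 0.0964 and 0.123. Tead1 passed when NT replicate 1 was left out (0.0476) and in no other such fit. Tead3 did not pass without siID4 replicate 1 (0.0628) or 2 (0.0503) or NT replicate 2 (0.0964) or 3 (0.0657). Tead4 did not pass without siID4 replicate 1 (0.0557) or 2 (0.123) or NT replicate 3 (0.0657). All 3 kept their direction in those fits, with log2 fold changes from 0.16 to 0.19 for Tead1, 0.28 to 0.40 for Tead3 and −0.45 to −0.31 for Tead4. They passed in all 8 fits with another scaling, filter, test or block.

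The kinase genes differed. Lats2 (ENSMUSG00000021959, chromosome 14, 57689662 to 57758388, minus strand) was at 64.5, 66.4 and 70.8 CPM in siID4 and at 53.6, 48.5 and 51.3 CPM in NT. All siID4 libraries were above all NT libraries, and Lats2 rose by 0.39 on the log2 scale (SE 0.06, edgeR adjusted p = 0.00561). Lats1 (ENSMUSG00000040021, chromosome 10, 7681214 to 7716460, plus strand) was at 132, 122 and 126 CPM in siID4 and at 137, 132 and 125 CPM in NT. The arms overlapped, with a log2 fold change of −0.05 (SE 0.05, 95% interval −0.17 to 0.07, edgeR adjusted p = 0.599). Lats2 passed in all 6 fits without 1 library, at an adjusted p of 0.0348 or less, and in all 8 others.

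Among the angiomotin genes, whose products tie YAP and TAZ to junctions and actin, Amotl2 had the largest fold change of the 10 genes in the fit of all 6 libraries. Without NT replicate 2 that of Tead4 was larger in size (−0.45, against 0.41 for Amotl2). Amotl2 (ENSMUSG00000032531, chromosome 9, 102716672 to 102733418, plus strand) was at 132, 124 and 130 CPM in siID4 and at 90.1, 85.2 and 104 CPM in NT. The lowest siID4 library stood above the highest NT library, replicate 3. Amotl2 rose by 0.47 on the log2 scale (SE 0.07, edgeR adjusted p = 0.00495), to 1.38 times the NT level, and passed in all 6 fits without 1 library and in all 8 others. Amotl1 (ENSMUSG00000013076, chromosome 9, 14541966 to 14645056, minus strand) was at 211, 225 and 233 CPM in siID4 and at 218, 228 and 229 CPM in NT. The values of both arms interleaved, with a log2 fold change of −0.01 (SE 0.05, 95% interval −0.12 to 0.10, edgeR adjusted p = 0.914). Its sign was positive with library totals (0.02) and without siID4 replicate 1 (0.03). The founding family member Amot, not among the 10, was at 46.3, 40.5 and 36.2 CPM in siID4 and at 55.0, 46.2 and 41.8 CPM in NT (log2 fold change −0.22, edgeR adjusted p = 0.300, and 8.26e-04 with the block). Leaving out NT replicate 1 gave Amot a log2 fold change of −0.10, and leaving out siID4 replicate 3 one of −0.13.

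**Figure D3:**
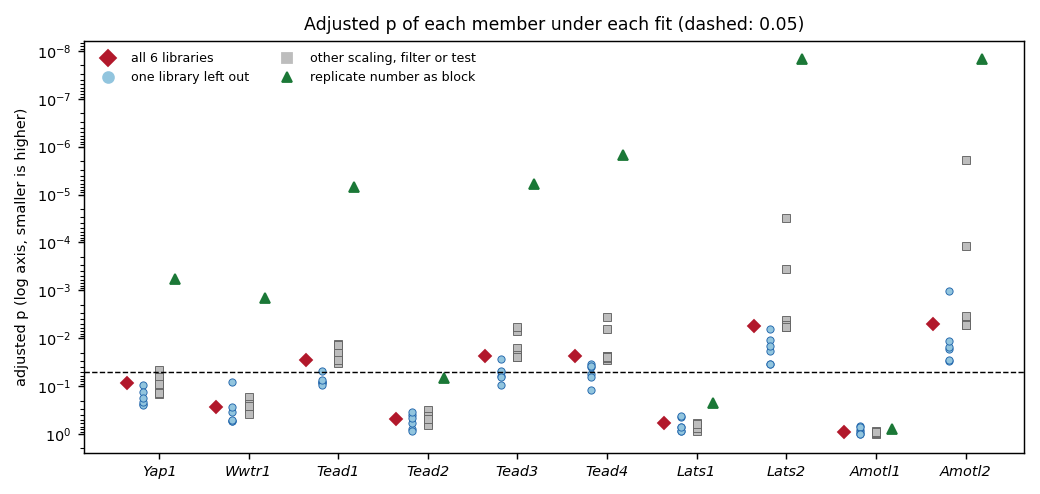
Adjusted p (log axis, smaller values higher) of each Hippo pathway mRNA with all 6 libraries (red), with 1 library left out (blue), under another scaling, filter or test (grey) and with the replicate number as a block (green). Lats2 and Amotl2 stay beyond 0.05 in every fit shown, Tead1, Tead3 and Tead4 cross it when single libraries are left out, and Tead2, Lats1 and Amotl1 pass in none.

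Levels of different genes were compared per length, as TPM, in which counts are divided by the deposited gene length and each library is set to the same total. Yap1 was the most abundant of the 10 at 111 ± 4.41 TPM in siID4 and 97.4 ± 0.761 TPM in NT (mean ± SD, n = 3 each). Amotl2 followed with 98.5 ± 2.50 TPM in siID4 and 68.7 ± 6.76 TPM in NT. Tead1 and Tead2 came next, at 70.5 ± 0.645 and 66.0 ± 4.26 TPM in siID4 and at 60.3 ± 1.27 and 59.8 ± 4.42 TPM in NT, with ranges that overlapped in each arm. Amotl1, Wwtr1 and Lats1 took the middle places in the same order in both arms, between 39.8 and 54.4 TPM in siID4 and between 39.9 and 53.0 TPM in NT. Of these, Amotl1 and Wwtr1 overlapped in siID4. The last 3 places changed order. In siID4 libraries they were held by Tead3 (29.0 ± 2.32 TPM), Lats2 (27.3 ± 1.12) and Tead4 (20.3 ± 0.883), where the ranges of Tead3 and Lats2 overlapped. In NT libraries they were held by Tead4 (25.6 ± 2.33 TPM), Tead3 (22.0 ± 0.834) and Lats2 (20.1 ± 0.910), with ranges that did not overlap.

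Within families, the shares of Tead3, Tead4, Lats2 and Amotl2 did not overlap between the arms, and no share passed adjustment. Tead4 was 10.5%, 10.8% and 11.4% of Tead mRNA by TPM in siID4 libraries and 14.7%, 14.6% and 16.4% in NT libraries. Tead3 was 16.4%, 15.3% and 15.2% in siID4 and 13.5%, 13.5% and 12.5% in NT. The differences of the means were −4.32 percentage points for Tead4 and 2.47 for Tead3, and −2.88 and 1.31 when shares were taken without scaling by length. Tead1 and Tead2 overlapped between the arms and together made up between 71.1% and 73.8% of Tead mRNA in every library. Lats2 was 38.7%, 41.3% and 42.1% of Lats mRNA in siID4 and 33.6%, 32.3% and 34.6% in NT. Amotl2 was 66.2%, 63.4% and 63.7% of the Amotl1 and Amotl2 mRNA in siID4 and 56.5%, 53.9% and 58.7% in NT. Wwtr1 was 32.0 ± 0.816% of the Yap1 and Wwtr1 mRNA in siID4 and 32.1 ± 1.59% in NT (SD, n = 3 each). With 3 libraries an arm, the smallest p an exact permutation test (two-sided) can reach is 0.1. It gave 0.1 for the shares of Tead3, Tead4, Lats2 and Amotl2, 0.2 for Tead1, 1 for Tead2 and 0.9 for Wwtr1, and Benjamini-Hochberg adjusted values of 0.175 or more over the 7 shares. Summed over all 4 genes, Tead mRNA was 186 ± 7.55 TPM in siID4 and 168 ± 5.59 TPM in NT.

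**Figure D4:**
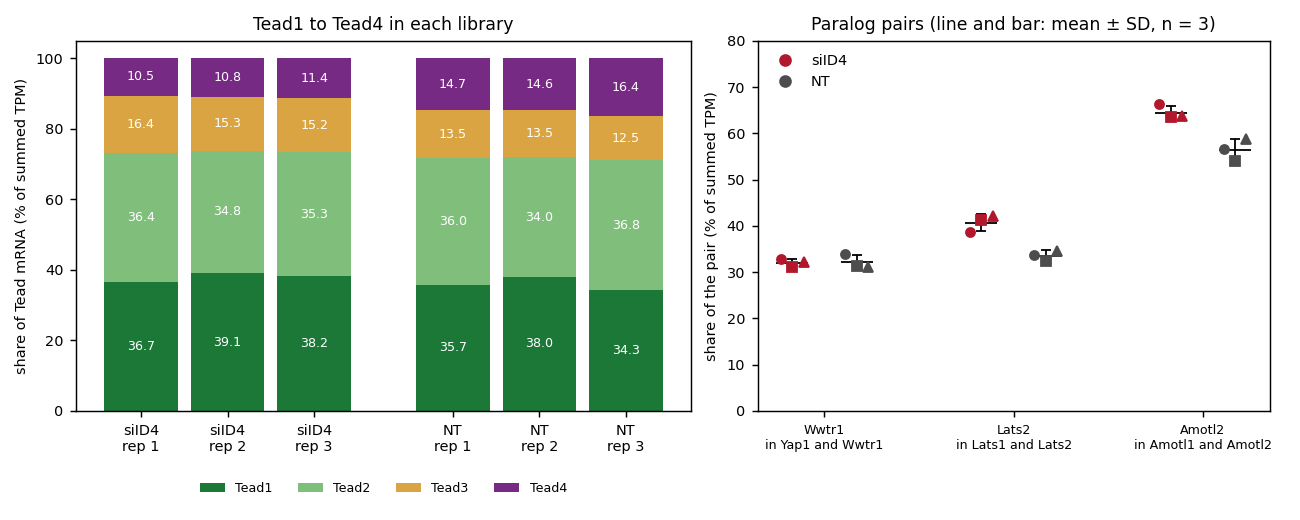
Left, the share of Tead1 to Tead4 in summed Tead TPM in each library, siID4 before NT. Right, the share of Wwtr1, Lats2 and Amotl2 in their paralog pairs, siID4 in red and NT in grey, with mean ± SD (n = 3); Tead4 takes 10.5% to 11.4% in siID4 and 14.6% to 16.4% in NT libraries, and only the Wwtr1 share overlaps between the arms on the right.

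Most other genes of the pathway did not pass the test. The lists of regulators held 81 genes outside the 10, of which 78 were tested, 7 rose and 5 fell. The share called was 15.4%, beside 9.55% of all genes, and the median log2 fold change of the 78 was 0.02. With the replicate number as a block, 7 of 20 kinase cassette genes and 7 of 15 STRIPAK, LIM and phosphatase genes were called. So were 8 of 20 polarity, junction and cadherin genes and 8 of 23 cofactor, 14-3-3 and turnover genes. That fit called 36.1% of all genes. Of 20 genes of the kinase cassette, Frmd6 rose and Mob1b and Sav1 fell (15% called). Sav1 encodes the scaffold of MST1 and MST2 and Mob1b a coactivator of LATS kinases. Mob1b was at 110, 102 and 95.8 CPM in siID4 and at 138, 128 and 116 CPM in NT (log2 fold change −0.31, SE 0.07, edgeR adjusted p = 0.0319), and Sav1 had a log2 fold change of −0.20 (SE 0.05, edgeR adjusted p = 0.0322). Frmd6, which encodes a FERM domain protein placed upstream of the kinases, rose by 0.23 on the log2 scale (SE 0.04, edgeR adjusted p = 0.0101). The count in this list was 0 without siID4 replicate 2 or NT replicate 2, 1 without NT replicate 1 and 7 with the block. Mob1b passed in 2 and Sav1 in 1 of the 6 fits without 1 library, and with library totals Sav1 had an adjusted p of 0.0625. The kinase genes Stk3 and Stk4 had log2 fold changes of −0.02 and 0.01, whose signs turned in other fits, to 0.01 for Stk3 and −0.03 for Stk4. Mob1a (−0.03) and Nf2 (−0.03), which encodes the tumour suppressor merlin, did not pass.

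Among 15 genes for STRIPAK, LIM domain and phosphatase proteins that act on the cassette, Zyx rose and Ppp1ca fell. The share called was 13.3%, beside 9.55% of all genes. Zyx, which encodes the focal adhesion protein zyxin, had a log2 fold change of 0.26 (SE 0.05, edgeR adjusted p = 0.0158), and Ppp1ca, a catalytic subunit of protein phosphatase 1, of −0.25 (SE 0.05, edgeR adjusted p = 0.00970). Zyx passed in 3 of the 6 fits without 1 library, and Ppp1ca in all but the fit without siID4 replicate 2 (adjusted p = 0.0653). The count in this list was 1 when siID4 replicate 1, 2 or 3 or NT replicate 2 was left out, 4 with library totals and 7 with the block. The fit with the block called 36.1% of all genes. Of 20 tested polarity, junction and cadherin genes, Fat4, Fat1 and Cdh1 rose and Ptpn21 fell (20% called, beside 9.55% of all genes). Fat4, an atypical cadherin gene related to Drosophila Fat, a receptor of Hippo signalling in the fly, was at 102, 97.5 and 76.8 CPM in siID4 and at 57.0, 53.5 and 44.2 CPM in NT. The lowest siID4 value exceeded the highest NT value, with a log2 fold change of 0.84 (SE 0.13, edgeR adjusted p = 0.00650) that passed in all 6 fits without 1 library. Ptpn21, a phosphatase gene, fell by 0.37 (SE 0.05, edgeR adjusted p = 0.00305) and also passed in all 6. Fat1 (0.23) and Cdh1 (0.24), which encodes E-cadherin, each passed in 2 of the 6. The count in this list was 2 without siID4 replicate 1 or 2 or NT replicate 2 or 3, and 8 with the block.

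Of 23 tested genes for cofactors, 14-3-3 docking and turnover of YAP and TAZ, Vgll3 and Runx2 rose and the 14-3-3 gene Ywhah fell. The share called was 13%, beside 9.55% of all genes. Ywhah changed most in this list. Its NT replicates 1 to 3 were at 283, 294 and 320 CPM, and its siID4 replicates at 143, 142 and 144 CPM. That drop of 1.06 log2 units (SE 0.05) reached an adjusted p of 4.76e-05 in edgeR. Leaving out any 1 library kept the Ywhah call, and so did the 8 other fits. Vgll3, whose product competes with YAP and TAZ for TEAD proteins, was at 31.7, 31.6 and 38.6 CPM in siID4 and at 21.4, 18.8 and 24.8 CPM in NT. It rose by 0.65 on the log2 scale (SE 0.12, edgeR adjusted p = 0.0105), and it passed in all 6 fits without 1 library. Vgll4, of the same family, was at 62.1 ± 5.66 CPM in siID4 and 60.3 ± 2.32 CPM in NT (SD, n = 3 each), with a log2 fold change of 0.04 that turned to −0.01 without siID4 replicate 2. Vgll1 and Vgll2 were at or near 0 in every library and not tested. Runx2, a transcription factor that can bind YAP and TAZ, rose by 0.27 (SE 0.07, edgeR adjusted p = 0.0355) and passed in 2 of the 6. With the block 8 of the 23 genes were called, where 36.1% of all genes were called.

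Known targets of YAP, TAZ and TEAD moved in different directions. Of 22 genes in a signature drawn from human tumours, Amotl2 and Lats2 among them, 6 rose and 3 fell (40.9% called, beside 9.55% of all genes), with a median log2 fold change of 0.19. Without Amotl2 and Lats2, 4 rose and 3 fell of 20, with a median of 0.17. The list was chosen with earlier results of these data known. Cyr61, which encodes the matricellular protein CCN1, was at 310, 346 and 318 CPM in siID4 and at 196, 255 and 225 CPM in NT. All siID4 libraries were higher, with a log2 fold change of 0.53 (SE 0.09, edgeR adjusted p = 0.00989, and 0.0542 without siID4 replicate 2). Rbms3, an RNA-binding protein gene, rose by 0.54 (SE 0.08, edgeR adjusted p = 0.00439). Nuak2, a kinase gene, and Crim1, which encodes a membrane protein that binds growth factors, rose by 0.36 and 0.22. Nt5e, which encodes the ectonucleotidase CD73, fell by 0.32 (SE 0.05, edgeR adjusted p = 0.00511), Dock5, an exchange factor for Rac, by 0.29 (adjusted p = 0.0104, and 0.0708 without siID4 replicate 2) and Myof, which encodes myoferlin, by 0.20. Nuak2, Crim1 and Myof, named after their values were seen, passed in 3, 1 and 3 of the 6 edgeR fits without 1 library. The count of called targets was 4 without siID4 replicate 2 and 15 with the block, where 36.1% of all genes were called.

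Other commonly used target genes did not pass. Ctgf, which encodes CCN2, was at 170, 157 and 200 CPM in siID4 and at 112, 126 and 173 CPM in NT. NT replicate 3 was higher than siID4 replicates 1 and 2, and the log2 fold change of 0.36 had a 95% interval from −0.03 to 0.75 (edgeR adjusted p = 0.230, and 0.0185 without NT replicate 3). Ankrd1, a nuclear ankyrin repeat protein gene, was at 51.1, 65.5 and 76.0 CPM in siID4 and at 48.8, 58.2 and 61.2 CPM in NT (log2 fold change 0.20, 95% interval −0.14 to 0.53, edgeR adjusted p = 0.449, and 0.00111 with the block). The log2 fold change of Ankrd1 was 0.06 without siID4 replicate 3, 0.10 without NT replicate 1 and 0.34 without siID4 replicate 1. Axl, a receptor tyrosine kinase gene, had a log2 fold change of −0.06 (95% interval −0.16 to 0.03).

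**Figure D5:**
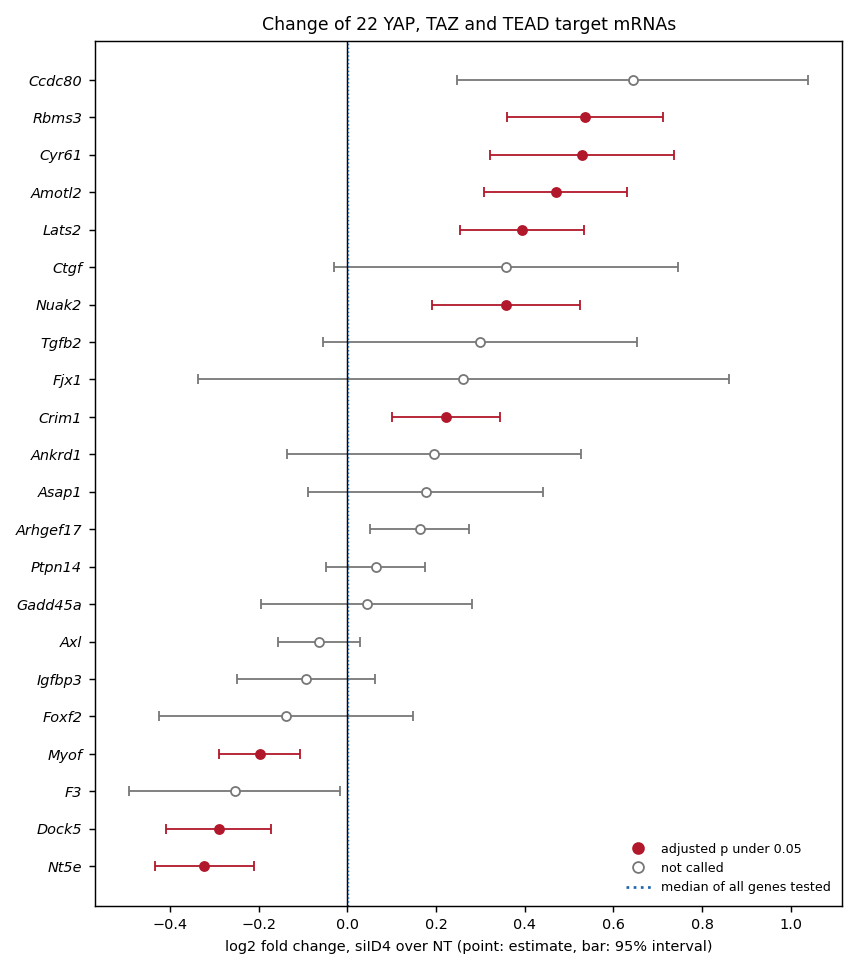
Log2 fold change of siID4 over NT for 22 target mRNAs of YAP, TAZ and TEAD with 95% intervals, in order of the estimate, filled red where the adjusted p was under 0.05. The estimates run from 0.64 (Ccdc80) to −0.32 (Nt5e), with 6 called above 0 and 3 below it.

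Fibroblast markers also differed between the arms. Of 11 such markers 9 were tested, 4 rose and 1 fell (55.6% called, beside 9.55% of all genes), and their summed level was 4830 to 5548 CPM in siID4 and 3413 to 4026 CPM in NT libraries. Most of that sum came from the collagen genes Col1a1 (mean 1817 CPM in siID4 and 1171 in NT), Col1a2 (1420 and 1074) and Col3a1 (1141 and 769), of which Col3a1 did not pass. Pdgfrb was at 344, 328 and 308 CPM in siID4 and at 276, 242 and 213 CPM in NT, while Pdgfra was at 40.8, 36.1 and 32.0 CPM in siID4 and at 64.9, 57.3 and 45.8 CPM in NT. Cxcl12 rose by 0.68 on the log2 scale (SE 0.07, edgeR adjusted p = 0.00138). Dcn (log2 fold change −0.35) and Fbln1 (−0.12) had lower means in siID4 and did not pass. Thy1 (1.08), at most 1.05 CPM in any library, had a higher mean in siID4 and did not pass. Dpt, not tested, was at a mean of 0.353 CPM in siID4 and 0.211 CPM in NT. These verdicts are from the test without the replicate block. Over all cell type marker lists, 8 of 28 tested genes were called in that test and 17 with the block. The fit with the block called 36.1% of all genes. Lum was at 0 in 1 siID4 library and 2 NT libraries and at most 0.136 CPM in the others. Summed levels were 1.89 to 2.72 CPM in siID4 and 0.836 to 1.50 CPM in NT for 9 endothelial and pericyte markers, 16.5 to 23.2 and 17.4 to 25.1 CPM for 9 leukocyte markers, and 15.9 to 17.7 and 15.5 to 17.1 CPM for 7 adipocyte markers. In a bulk sample a change in the number of cells of a kind and a change in mRNA per cell cannot be told apart. The part of the fibroblast markers in the changes of the Hippo pathway mRNAs was not tested.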

How the data were processed

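The authors deposited 1 table of expected counts per gene for the 6 libraries, with a gene length. Tool names in the submitters' processing notes are cutadapt, STAR and RSEM, with the build mm10. Annotation, strand setting and filter are not stated there. Expected counts were rounded to whole numbers. All 60 values of the 10 genes were whole as deposited (tolerance 0). GENCODE M21 (GRCm38) gave positions and lists gene models that overlap 7 of the 10, on the same strand for Tead1, Lats2 and Amotl1. Reads of these may not be told apart from those of the overlapping models. If counting ignored strand, the same holds for Yap1, Wwtr1, Tead2 and Tead4, whose overlapping models lie on the opposite strand.

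The main test was edgeR 4.0.16 (R 4.3.3, quasi-likelihood, robust, TMM, filterByExpr, group as the only term), adjusted over 13941 genes. Standard errors were derived from the F statistic. In simulated data with these library sizes edgeR recovered 87% of genes with a log2 change of 0.5 (13836 genes run). Libraries of the same arm differed by more than sampling noise (chi-square 5.10 to 13.8 per gene).

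Same-numbered libraries deviated together from their arm means in each of 3 pairs, with correlations over genes of 0.42, 0.14 and 0.38, so the numbers were taken to pair them. For the 10 and the named genes of the Hippo lists, values with the replicate number as a block are given where they change a call. For cell type markers only the count with the block is given. Alternatives were DESeq2 1.42.0, limma 3.58.1 (voom), other scalings and filters, and leaving out each library. Members and gene lists were chosen with earlier results of these data known. Named genes were the 10, Id4, up to 6 called genes of each Hippo list with the smallest adjusted p, and core genes and targets fixed by name. Leading epithelial and fibroblast markers were named as well. Trp63, Epcam, Fbln1, Cxcl12, Thy1, Dpt and the collagen genes were named after their values were seen. Protein features of the 10 were planned and not analysed here.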

Additional observations from a re-analysis of the deposited data

How the results depend on the processing

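The count of called Hippo pathway mRNAs was 5 of 10 in the main test and lay between 2 and 5 when 1 library was left out. Leaving out 1 library gave 445 to 1351 called genes over the whole table, 0 to 3 in the kinase cassette, 1 to 3 among STRIPAK, LIM and phosphatase genes, 2 to 4 among polarity, junction and cadherin genes, 2 to 4 among cofactor, 14-3-3 and turnover genes, 4 to 10 among the targets and 3 to 8 among all cell type markers. With the replicate number as a block, 5038 genes (36.1%) were called in all. In those lists, in the same order, 7 of 20, 7 of 15, 8 of 20, 8 of 23, 15 of 22 and 17 of 28 tested genes were called. Library totals in place of TMM called 4 STRIPAK, LIM and phosphatase genes. Fits without 1 library also had fewer libraries, and the cause of these shifts was not tested. Id4 kept its direction and its call in all 14 alternatives. Over the 10 mRNAs and 14 alternatives each, 123 of 140 values kept direction and side of the threshold, 12 lost the call, 3 gained it and 2 changed sign. Signs turned for genes close to no change: with library totals the log2 fold changes of Amotl1 and Stk3 were 0.0172 and 0.00866, and without 1 library they ranged from −0.0438 to 0.0256 for Amotl1, −0.0426 to 0.00281 for Stk3, −0.0307 to 0.0480 for Stk4 and −0.00799 to 0.115 for Vgll4. The difference in the Wwtr1 share of the pair, −0.06 percentage points, ranged from −0.53 to 0.86 without 1 library, and that of the Tead2 share, −0.11 (−0.45 without length scaling), from −0.94 to 0.50. No other share changed direction without length scaling, with the block or without 1 library. The lowest count of any of the 10 mRNAs in a library was 560, for Tead3 in NT replicate 2.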
